A study of Mus musculus with 4 samples.

Results

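The matrilin genes Matn1, Matn2, Matn3 and Matn4 were described in cultured rib chondrocytes, the cells that make cartilage matrix. They were taken by gene symbol, and all 4 were found among the 17575 genes listed in any library. The family was chosen by its measured levels, which differed in opposite directions between knockout and wild type, so its knockout and wild type values are given below as a description, with no test. RNA-seq libraries were made from rib chondrocytes of C57/Bl6 mice aged 10 days, freed with collagenase and plated before RNA extraction. 2 libraries came from wild type mice (WT) and 2 from mice with a Col2Cre(Tg) transgene, given as Kdm6a(fl/fl) and Kdm6b(fl/fl), called the knockout (KO) here. Kdm6a and Kdm6b encode histone H3 demethylases that take off a repressive methyl mark. Their alleles are flanked by loxP sites in the knockout, and the Cre recombinase is driven by Col2, a promoter known for its activity in the cartilage lineage. Deletion by cell type was not measured here. The labels do not say whether wild type mice carried loxP sites or Cre, give no sex, and do not tell if the libraries within a group stem from different mice, so p-values measure only the spread between these libraries, which may be technical. The design text states triplicates, while 2 libraries a group were used here.

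Matrilins are oligomeric adapter proteins of the extracellular matrix. Their chains are built of von Willebrand factor A domains, which bind other matrix proteins, EGF-like domains and an end coiled coil that joins chains into oligomers. Matrilin-1 and matrilin-3, from Matn1 and Matn3, are made mainly in cartilage, where they form mixed oligomers and link collagen II and IX fibrils, aggrecan and Comp. Matrilin-2 and matrilin-4, from Matn2 and Matn4, are also made in many other connective tissues and in nerve. Mutations of MATN3 cause multiple epiphyseal dysplasia, a disorder of growing bone ends. In the deposited annotation, calcium ion binding was the only term shared by all 4 genes. 3 of them, Matn1, Matn2 and Matn3, carried proteinaceous extracellular matrix, and Matn2 and Matn4 shared response to axon injury.

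Each library held 31178248 to 32332044 estimated counts. The targeted genes were lower in both knockout libraries: Kdm6b fell 2.56-fold (edgeR quasi-likelihood test, adjusted p = 0.00174) and Kdm6a 1.83-fold (adjusted p = 0.00489), counted over whole genes and not over the deleted part. All 9 chondrocyte markers were detected in every library, with summed levels of 41700 to 43000 CPM (counts scaled to library size with TMM factors) in wild type and 57500 to 59900 CPM in knockout. More than any other, Col2a1 carried this sum, with 26008 and 24370 CPM in wild type and 37111 and 36603 CPM in knockout. Of the 9 markers 3 rose (Col2a1, Col9a1 and Col11a1), 1 fell (Snorc, 1.53-fold, edgeR adjusted p = 0.0141) and 5 did not pass, beside 3.62% rising and 5.63% falling over all tested genes. Markers of other cells were present at far lower sums. The 10 macrophage markers summed to 171 to 180 CPM in wild type and 91.1 to 105 CPM in knockout. Most of this sum came from Cd14, with 125 and 132 CPM in wild type and 61.4 and 76.3 CPM in knockout. The complement genes C1qa and C1qb were at no more than 0.184 CPM in any library and were not tested. Of the 8 tested macrophage markers 6 had both knockout libraries below both wild type libraries, and 0 had them above. Over all tested genes these shares were 30.7% and 30.9%. Among the 6, Itgam measured 13.2 and 17.6 CPM in wild type and 7.38 and 5.58 CPM in knockout. The 8 endothelial markers summed to 124 to 133 and 87.6 to 100 CPM. The 8 erythroid markers summed to 22.9 to 28.0 and 10.8 to 12.3 CPM, and the 8 osteoblast markers to 105 to 147 and 66.7 to 106 CPM. Nearly all of the osteoblast sum came from Col1a1, a collagen gene of many cells, with 96.2 and 138 CPM in wild type and 63.0 and 101 CPM in knockout, which overlapped. In 6 of the 7 tested osteoblast markers both knockout libraries lay below both wild type libraries, as in 30.7% of all tested genes. 5 of the 8 osteoblast markers averaged under 1 CPM. In bulk RNA, fewer cells of a type and less RNA per cell cannot be told apart.

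Matn1 and Matn3, the cartilage matrilins, carried the pattern. The windows around their start sites are shown because these 2 genes differed most, in opposite directions. Each runs from 250 bases before to 50 bases after the annotated start, in the direction of transcription, from RefSeq on build GRCm38.p6, and capitals mark CG dinucleotides. The files use mm9, so these coordinates belong to the reference and not to the counts. The Matn1 window is chr4:130944135-130944434 and the Matn3 window chr12:8947679-8947978, both on the plus strand.
Matn1: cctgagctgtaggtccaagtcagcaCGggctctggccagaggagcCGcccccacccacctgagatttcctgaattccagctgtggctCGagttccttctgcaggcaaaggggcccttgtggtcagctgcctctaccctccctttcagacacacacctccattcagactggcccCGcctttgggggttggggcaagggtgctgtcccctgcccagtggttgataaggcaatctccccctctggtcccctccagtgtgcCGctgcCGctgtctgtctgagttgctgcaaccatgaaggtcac
Matn3: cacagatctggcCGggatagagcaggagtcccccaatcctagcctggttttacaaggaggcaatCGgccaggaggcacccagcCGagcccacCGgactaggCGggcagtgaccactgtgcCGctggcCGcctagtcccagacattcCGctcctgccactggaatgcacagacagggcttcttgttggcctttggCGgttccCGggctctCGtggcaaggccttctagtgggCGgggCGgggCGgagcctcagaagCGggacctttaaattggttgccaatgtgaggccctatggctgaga
The Matn1 window held 6 CG dinucleotides and 61.3% G and C, and the Matn3 window 15 CG dinucleotides and 62.7% G and C. The median of 32851 promoter windows of the same length was 7 CG dinucleotides and 52.7% G and C, and 43.6% of windows had fewer CG dinucleotides than Matn1 and 65.4% fewer than Matn3. Matn4 has windows at 2 start sites in this table, with 9 and 19 CG dinucleotides. Matn2 was not matched. Searched on both strands, TATAAA, and ACAAAG and AACAAT, which match sites of SOX factors, were found in neither of the 2 printed windows. They occur in 13.6%, 18.7% and 10.7% of all windows. The CCAAT box (letters CCAAT) and TTGGC, a half-site of NFI factors, were each found 3 times in the Matn3 window and not in the Matn1 window, against 37.4% and 46.7% of all windows with at least 1 match. The reverse complement of TTGGC is GCCAA, which can overlap CCAAT, as it does at gccaat in the Matn3 window. These are letter matches only.

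Matn1 was the matrilin that was lower in knockout chondrocytes by the widest margin. Its FPKM, a level per transcript length and library size as deposited, was 14.7 and 15.0 in wild type and 3.07 and 4.03 in knockout. Both knockout libraries lay well below both wild type libraries, and the groups did not overlap. On the scale of CPM it measured 30.0 ± 1.0 (SD, n = 2) in wild type and 6.99 ± 1.3 (n = 2) in knockout, 4.29-fold lower, with a log2 fold change (knockout minus wild type) of -2.10 (SE 0.15). Of 13773 genes with enough counts to be fitted, 45 had a lower log2 fold change.

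Matn3 went the other way. It measured 7.87 and 9.91 FPKM in wild type and 31.9 and 38.6 FPKM in knockout. The lower knockout library lay above the higher wild type library, so the groups did not overlap, and in CPM the wild type libraries differed 1.29-fold from each other, against 1.05-fold for Matn1. In CPM it was 27.2 ± 4.9 (n = 2) in wild type and 105 ± 14 (n = 2) in knockout, 3.86-fold higher, with a log2 fold change of 1.95 (SE 0.15). 20 of the fitted genes had a higher log2 fold change.

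The more widely expressed Matn2 and Matn4 differed in the same 2 directions by smaller amounts. Matn2 had 14.5 and 15.4 FPKM in wild type and 10.4 and 10.9 FPKM in knockout, with no overlap between the groups. It was 1.45-fold lower, at 53.7 ± 3.3 CPM (n = 2) in wild type against 37.1 ± 1.4 CPM (n = 2), with a log2 fold change of -0.53 (SE 0.082). Matn4, the lowest of the family in wild type, had 2.97 and 2.34 FPKM there and 3.89 and 5.04 FPKM in knockout. Its groups did not overlap either, but the gap between the nearest libraries was 0.92 FPKM. It was 1.66-fold higher, at 6.66 ± 0.91 CPM (n = 2) in wild type against 11.1 ± 2.0 CPM (n = 2), with a log2 fold change of 0.73 (SE 0.18). All 4 matrilin genes passed the filter on low counts, and in each the knockout libraries lay on 1 side of the wild type libraries. The same held for 61.7% of all fitted genes, 30.9% with knockout higher and 30.7% with knockout lower. A difference of at least 2-fold with no overlap, as for Matn3 and Matn1, was found in 1.37% of fitted genes with knockout higher and in 3.46% with knockout lower.

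**Figure D1:**
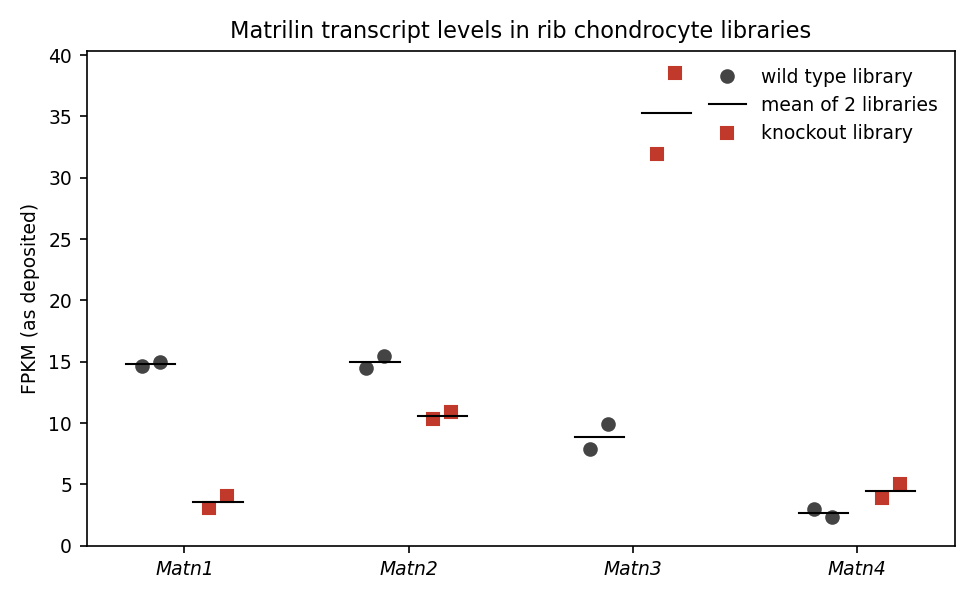
Deposited FPKM (vertical axis) of the matrilin genes in each library, with wild type libraries as circles, knockout libraries as squares and the mean of 2 libraries as a line. Matn1 lies at 14.7 and 15.0 in wild type and at 3.07 and 4.03 in knockout, and Matn3 at 7.87 and 9.91 against 31.9 and 38.6.

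The order of the levels within the family changed with these values. In wild type, Matn1 (14.8 ± 0.25 FPKM, n = 2) and Matn2 (15.0 ± 0.65, n = 2) stood together at the top, and their libraries overlapped, Matn1 being first in the first library and Matn2 in the second. Matn3 followed at 8.89 ± 1.4 FPKM and Matn4 at 2.66 ± 0.45 FPKM, each apart from its neighbours in every library. In knockout, Matn3 came first at 35.2 ± 4.7 FPKM and Matn2 second at 10.6 ± 0.37 FPKM. Matn4 at 4.47 ± 0.81 FPKM and Matn1 at 3.55 ± 0.68 FPKM (n = 2 each) overlapped between libraries, so their order is not settled by the group values, although Matn4 was above Matn1 within each knockout library. Matn1 thus went from the upper pair to the lower pair.

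As a share of the summed FPKM of the 4 genes, Matn3 made up 19.7% and 23.2% in wild type and 64.9% and 65.9% in knockout. Matn1 made up 36.6% and 35.2% in wild type and 6.23% and 6.89% in knockout. The share of Matn2 was 36.3% and 36.2% against 21.02% and 18.6%, and that of Matn4 7.42% and 5.48% against 7.90% and 8.62%. Shares within a library depend on each other, so that a larger Matn3 share lowers the rest. The ratio of Matn3 to Matn1, in FPKM within a library, was 0.537 and 0.660 in wild type and 10.4 and 9.57 in knockout. That ratio does not depend on the scaling between libraries. The ratio of Matn4 to Matn2, the pair with smaller differences, was 0.205 and 0.152 in wild type and 0.376 and 0.463 in knockout. The sum of the 4 genes was 40.0 and 42.7 FPKM in wild type and 49.3 and 58.5 FPKM in knockout. For scale, Col2a1, the main collagen gene of cartilage, had 5220.4 and 4767 FPKM in wild type and 7547 and 7426 FPKM in knockout.

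**Figure D2:**
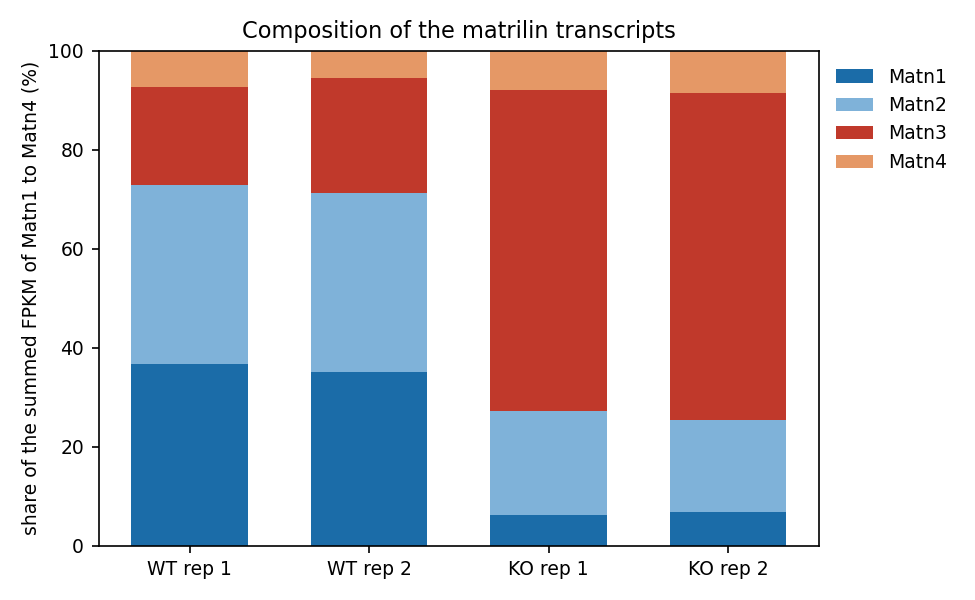
Share of each matrilin gene in the summed FPKM of Matn1 to Matn4 (vertical axis, percent) in each library. Matn3 fills 19.7% and 23.2% of the wild type bars and 64.9% and 65.9% of the knockout bars, and Matn1 narrows from 36.6% and 35.2% to 6.23% and 6.89%.

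The matrilin counts behind these values ran from 183 for Matn4 in the second wild type library to 3756 for Matn3 in the second knockout library. Counting error alone, the inverse square root of the count, was 1.63% for the latter and 7.40% for the former. Matn4 was counted over 2 transcripts, with an estimated length of 2464 bases in the first wild type library and 2508 bases in the other wild type library, so that its FPKM also carries the split between transcripts. The longest stretch shared exactly by transcripts of 2 matrilin genes in GENCODE M21 was 18 bases, for Matn1 with Matn2 and for Matn1 with Matn4. It was 14 bases for Matn1 with Matn3. The authors' deposited table gave log2 fold changes of -2.04 for Matn1, -0.52 for Matn2, 1.91 for Matn3 and 0.70 for Matn4. It marked Matn1 as down and Matn3 as up and neither Matn2 nor Matn4. That table comes from the same series, so it is no separate check, and a missing mark does not show that a gene is unchanged.

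The genes of proteins that matrilins bind or share a network with moved in both directions. All 21 were tested, and 4 rose and 4 fell while 13 did not pass, where 9.25% of all 13773 tested genes passed (498 rose, 3.62%, and 776 fell, 5.63%). The median log2 fold change was 0.09, against 0.0044 over all tested genes. The fibrillar collagen genes Col2a1 and Col11a1 rose 1.46-fold and 1.52-fold and Col9a1, a chain of the collagen IX that carries matrilin-3 on fibrils, rose 1.49-fold (edgeR adjusted p = 0.0156, 0.0125 and 0.0181). The other collagen IX chains Col9a2 and Col9a3 stood at 0.09 (SE 0.079) and 0.29 (SE 0.081) on the log2 scale and did not pass. Epyc, a small leucine-rich proteoglycan of growth cartilage, rose 1.83-fold (adjusted p = 0.0109).

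Comp, a pentameric partner of matrilins, fell with 489 and 450.1 CPM in wild type and 124 and 138 CPM in knockout, a 3.58-fold change (edgeR adjusted p = 0.000915). Chad, which binds collagen and integrins, fell 2.44-fold, from 396 and 258 CPM to 156 and 112 CPM (adjusted p = 0.0236). Dcn, the small proteoglycan decorin, fell 2.09-fold and Itga1, an integrin chain that forms a collagen and matrilin-1 receptor, fell 1.92-fold (edgeR adjusted p = 0.0397 and 0.0401). Its partner chain gene Itgb1 had a log2 fold change of -0.03 (SE 0.070). Acan, the core protein gene of aggrecan, had a log2 fold change of 0.33 (SE 0.089) and did not pass. Prelp, of the same proteoglycan family as decorin, had the highest value of the list at 1.28 (SE 0.44) without passing, at 26.7 and 65.8 CPM in knockout. Of the macrophage markers 2 of 8 tested fell, Cd14 and Itgam. Log2 fold changes of the tested macrophage markers ran from -1.45 to 0.21, with a median of -0.83. Of the endothelial markers 3 of 8 fell, with a median of -0.44, where 5.63% of all tested genes fell. The part of such cells in the partner gene values was not tested.

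Without wild type replicate 1 or without wild type replicate 2, edgeR called no gene in this or any other list, nor any gene at all, although the unadjusted p was under 0.05 for 3442 and 2587 genes. DESeq2 then called 560 and 425 genes in all. Without knockout replicate 1, 7 partner genes rose in edgeR. The calls of Chad, Dcn and Itga1 also ended when no filter on low counts was used (edgeR adjusted p = 0.0562, 0.0816 and 0.0783).

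**Figure D3:**
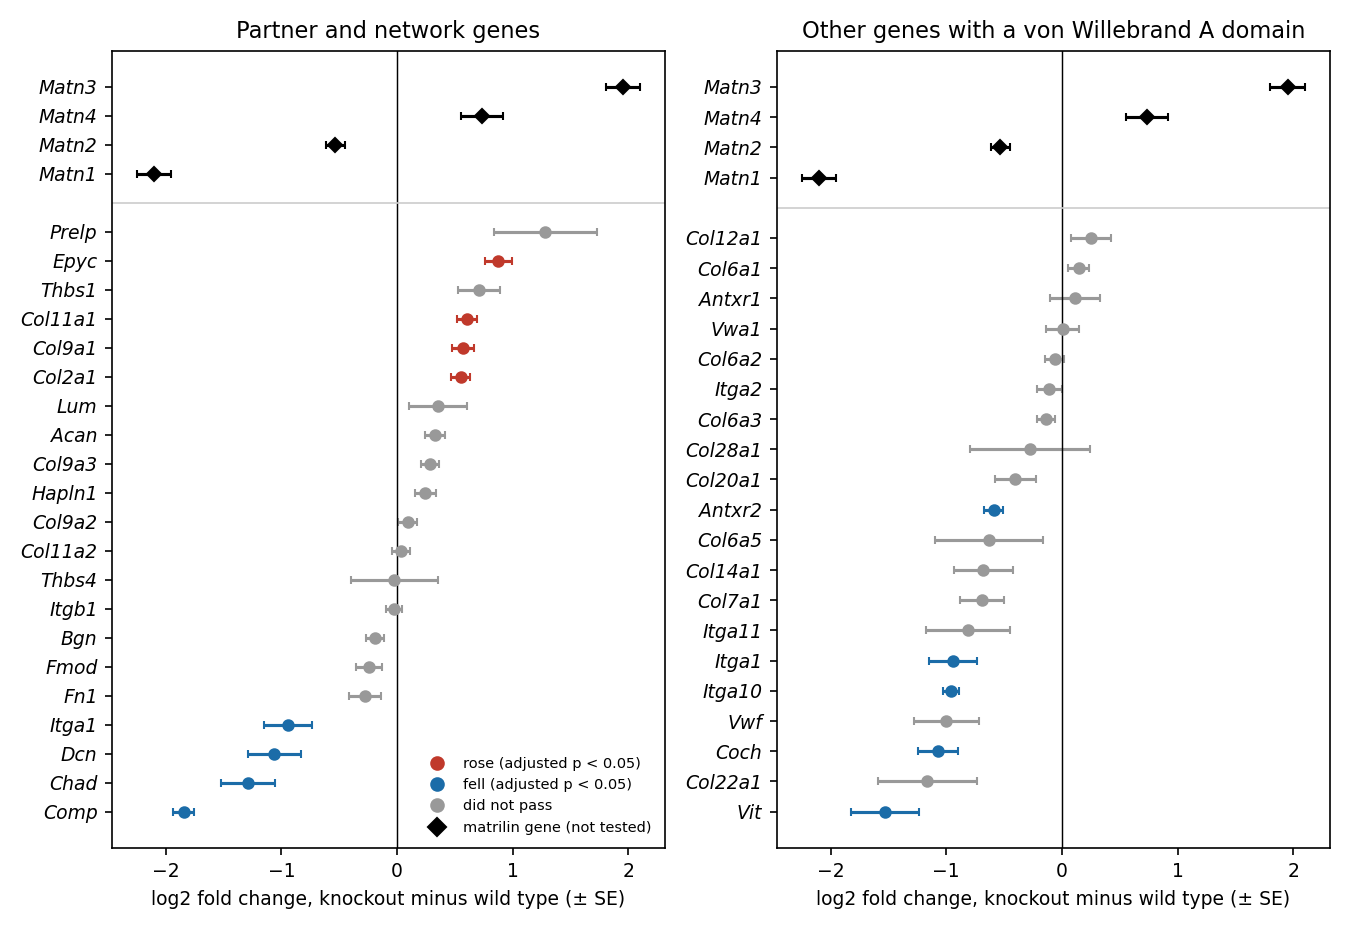
Log2 fold change, knockout minus wild type, with its SE (horizontal axis) for tested partner and network genes and for other tested genes with a von Willebrand A domain, with the matrilin genes as diamonds above each. Partner genes lie on both sides of 0, from Comp at -1.84 to Prelp at 1.28, while the genes that passed on the right all lie below 0.

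Other secreted or surface proteins share the von Willebrand factor A domain of matrilins. Of 23 genes listed for them 20 were tested, of which 0 rose, 5 fell and 15 did not pass, beside 3.62% rising and 5.63% falling over all tested genes. Itga10, the collagen-binding integrin chain typical of chondrocytes, fell 1.95-fold, from 74.9 and 78.1 CPM to 39.1 and 39.4 CPM (edgeR adjusted p = 0.00188). Itga1, also a partner gene, fell as given above. Vit and Coch, secreted proteins with the same domain, fell 2.88-fold and 2.10-fold, and Antxr2, a surface receptor, fell 1.505-fold (edgeR adjusted p = 0.0276, 0.018 and 0.0114). Vit is low, at 3.76 and 2.60 CPM in wild type, and its edgeR adjusted p was 0.0501 without the filter on low counts. The collagen VI genes Col6a1, Col6a2 and Col6a3, the most abundant of the list, did not pass, at 0.14 (SE 0.090), -0.06 (SE 0.084) and -0.14 (SE 0.076) on the log2 scale. Vwa1, which encodes a cartilage protein made of such a domain and fibronectin repeats, had a log2 fold change of 0.0057 (SE 0.15). The median of the tested members was -0.61, and without wild type replicate 1 or 2 none passed in edgeR.

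Among 12 transcription factor genes tied to matrilin or cartilage matrix promoters 2 rose, 1 fell and 9 did not pass, beside 3.62% rising and 5.63% falling over all tested genes. Sox6 and Sox5, which encode partners of SOX9 on cartilage enhancers, rose 1.69-fold and 1.32-fold (edgeR adjusted p = 0.00392 and 0.0259). Sox9 itself measured 665.8 and 612 CPM in wild type and 634 and 490 CPM in knockout, and the groups overlapped (log2 fold change -0.19, SE 0.13). Runx2, a driver of chondrocyte hypertrophy, fell 1.49-fold (adjusted p = 0.0231 in edgeR). The 4 NFI genes Nfia, Nfib, Nfic and Nfix had log2 fold changes from 0.05 to 0.27 and did not pass. Sox5 did not pass without knockout replicate 2 (edgeR adjusted p = 0.0799), and Runx2 did not without knockout replicate 1 (edgeR adjusted p = 0.0557). None of the 3 passed when either wild type library was left out. The median of the list was 0.23.

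Matn3 belongs to a group of genes mutated in multiple epiphyseal dysplasia. Of the other 6 genes listed for it or for the handling of the mutant proteins 2 rose, 1 fell and 3 did not pass, and 4 of them are also partner genes. Over all tested genes 3.62% rose and 5.63% fell. Slc26a2, a sulfate transporter gene needed for proteoglycan sulfation, rose 1.73-fold from 53.4 and 59.4 CPM to 89.1 and 105.9 CPM (edgeR adjusted p = 0.0112), Col9a1 rose and Comp fell as given above. Of 10 genes of proteases that cut matrilins or cartilage matrix 8 were tested, of which 0 rose and 2 fell, beside the same shares over all tested genes. Htra1, a secreted serine protease gene, fell 2.18-fold and Adamts1 fell 1.74-fold (edgeR adjusted p = 0.00197 and 0.00676). Adamts4 and Adamts5, the aggrecanases, stood at -0.71 (SE 0.30) and -0.38 (SE 0.38) on the log2 scale and did not pass. Without knockout replicate 2, 6 genes of the protease list passed as falling in edgeR, and none when either wild type library was left out. The medians were 0.19 for the dysplasia genes and -0.67 for the tested proteases, beside 0.0044 over all tested genes.

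Matn2 and Matn4 are also made by other cells. The 9 tendon and fibroblast markers summed to 280 to 350 CPM in wild type and 255 to 359 CPM in knockout, with 0 of 9 tested past the threshold, and the 8 Schwann cell markers summed to 42.1 to 43.9 and 44.2 to 50.4 CPM. Of the latter 1 rose (S100b, which chondrocytes make too), 1 fell (Mbp) and 5 did not pass, with Gfap at no more than 0.0988 CPM in any library. The 7 smooth muscle markers summed to 1360 to 1470 and 1370 to 1510 CPM, nearly all of it from Cspg4, and 1, Tagln, rose. The 8 skeletal muscle markers summed to 10.4 to 10.6 CPM in wild type and 7.72 to 27.5 CPM in knockout, where 1, Tnnt3, rose. Tnnt3 is low, at 0.127 and 0.296 CPM in wild type and 0.946 and 1.47 CPM in knockout. The higher knockout sum was that of the second library, where Myod1 had 10.7 CPM, against 2.75 CPM in the first. Of 5 adipocyte genes 1, Fabp4, was tested and did not pass. Of the erythroid markers 3 of 5 tested fell, with a median log2 fold change of -1.10. Of the osteoblast markers 1 of 7 tested fell, with a median of -1.55. Over all tested genes 5.63% fell and 3.62% rose. None of these calls held in edgeR when either wild type library was left out, and those of S100b and Tnnt3 also ended without the filter on low counts (adjusted p = 0.088 and 0.0618). S100b did not pass with library totals only or without knockout replicate 1 either (edgeR adjusted p = 0.0545 and 0.0853), nor Tnnt3 without knockout replicate 2 (edgeR adjusted p = 0.0854). The part of such cells in the Matn2 and Matn4 values was not tested.

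The genes that lie beside each matrilin gene were examined to see if they share its reads or its difference. The 2 nearest listed genes on each side, in the gene order of GRCm38.p6, gave 16 neighbours, of which 14 were tested, 1 rose and 1 fell, beside 9.25% of all tested genes that passed. Laptm5, the gene just before Matn1 and a lysosomal protein of blood cells, fell 1.86-fold (edgeR adjusted p = 0.0186), in the direction of Matn1. Macrophage markers had a median log2 fold change of -0.83, and the part of blood cells in the Laptm5 value was not tested. Wdr35, the gene after Matn3, which encodes a protein of ciliary transport, rose 1.59-fold from 24.0 and 22.4 CPM to 38.4 and 35.4 CPM (edgeR adjusted p = 0.0109). Ttc32, next to it, had a log2 fold change of 0.56 (SE 0.20) and did not pass. Both calls were lost when either wild type library was left out. Rbpjl overlaps Matn4 on the opposite strand with 149 shared exon bases in GENCODE M21, and measured at most 0.428 CPM in any library, against 6.02 CPM for Matn4 in its lowest. The gene 9430069I07Rik, within the Matn2 gene on the opposite strand with 70 shared exon bases, measured at most 0.0305 CPM. The sources used here do not state if counting was by strand, so reads of such overlaps cannot be assigned.

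**Figure D4:**
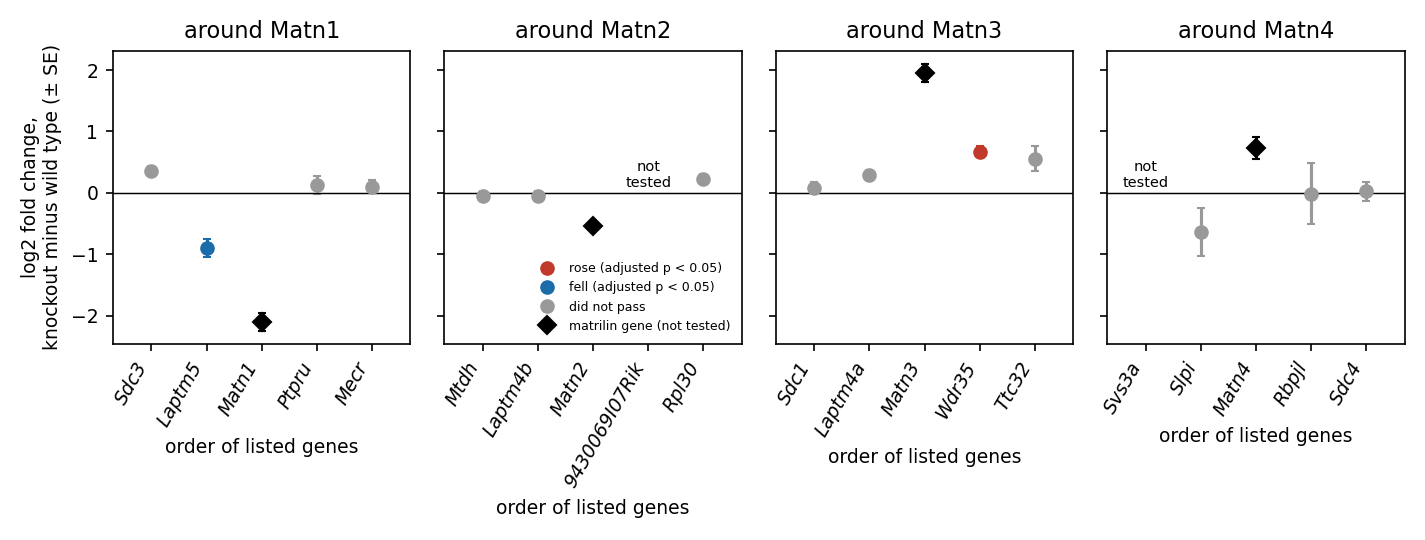
Log2 fold change, knockout minus wild type, with its SE (vertical axis) for each matrilin gene (diamond) and the 2 nearest listed genes on each side (circles, in genomic order). Laptm5 beside Matn1 lies at -0.89 and Wdr35 beside Matn3 at 0.67, and the other 12 tested neighbours did not pass.

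Genes with the profile most like each matrilin were found by the Euclidean distance between log2 CPM profiles over the 4 libraries, each centred on its own mean, among 9688 other genes averaging at least 5 CPM. Since the profile is mostly the contrast of knockout and wild type, likeness here means a similar difference and similar spread. Nearest to Matn1 were Ido2 (distance 0.25), Sema7a (0.26), Il11 (0.31) and Slc38a3 (0.33), an enzyme of tryptophan breakdown, a semaphorin, a cytokine and a glutamine transporter. Sema7a, the most abundant of them, measured 291 and 286 CPM in wild type and 72.4 and 83.2 CPM in knockout. Nearest to Matn3 were the cartilage matrix gene Ucma (0.24), Slc16a4 (0.29), the pentraxin gene Ptx3 (0.31) and Sorbs2 (0.35). Ucma measured 34.3 and 37.7 CPM in wild type and 110.2 and 141 CPM in knockout. Nearest to Matn2 were Bcl2l11 (0.038), a promoter of cell death, Lyst (0.048), the transcription factor gene Atf4 (0.05) and Lpin3 (0.051), and nearest to Matn4 were the receptor gene Axl (0.13), the adapter gene Grb14 (0.14), Tmem256 (0.15) and Fndc10 (0.15). Among the matrilins themselves, Matn1 and Matn3 lay farthest apart, at 4.06, followed by Matn1 and Matn4 at 2.84 and Matn2 and Matn3 at 2.49. The pairs that differed in the same direction, Matn1 with Matn2 and Matn3 with Matn4, lay 1.59 and 1.31 apart, no nearer than Matn2 and Matn4 at 1.30, which differed in opposite directions by small amounts.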

How the data were processed

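RNA-seq values of 4 libraries were used, grouped and numbered by sample title. The submitters' processing notes name Bowtie2 2.2.5 and build mm9. How reads were counted, and if strand was used, is not given in the sources. Each library's table, as the authors deposited it, holds per gene an expected count, which is an estimate and need not be whole, and an FPKM value, per the file headers. Genes missing from a library's table were set to 0. The authors also deposited a DESeq2 comparison with a mean signal per group, a log2 fold change and p-values, from which only the values of the matrilin genes were read, without p-values.

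After rounding, the counts were tested in edgeR 4.0.16 (R 4.3.3) by quasi-likelihood F tests, knockout against wild type, after filterByExpr and TMM scaling, with Benjamini-Hochberg adjustment over 13773 tested genes and a threshold of 0.05. SEs were obtained by dividing the log2 fold change by the root of F. The edgeR step was tested on counts simulated with the spread estimated from these 4 libraries, which cannot show that the calls hold in other libraries. DESeq2 1.42.0, limma 3.58.1 on log2 FPKM with pseudocounts of 1 and 0.1, other scalings and filters, a replicate block and single libraries left out were alternatives.

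The matrilin genes, the gene lists and the alternatives were chosen with earlier results of these data known. Named genes were the matrilins, Kdm6a and Kdm6b, list members past the threshold, the 2 nearest listed genes on each side and the 4 genes of most similar profile. Other list members with values were chosen after their values were seen. Gene order and promoter windows came from RefSeq tables of GRCm38.p6, and transcripts and exons from GENCODE M21.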

Additional observations from a re-analysis of the deposited data

How the results depend on the processing

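All 4 matrilin log2 fold changes kept their sign in the 14 alternatives run for each. The genes were picked for their directions and their groups did not overlap, so leaving out 1 library could hardly reverse a sign. The kept signs are therefore no support for the directions. The log2 fold changes ranged from -2.30 to -1.81 for Matn1, -0.59 to -0.46 for Matn2, 1.78 to 2.15 for Matn3 and 0.54 to 0.91 for Matn4. With limma on log2(FPKM + 1), with or without its filter, Matn1 was at -1.81, where the pseudocount pulls low values together. Leaving out either wild type library ended every edgeR call. With 1 library left out, edgeR called 0 to 450 rising and 0 to 825 falling genes, where the lone sample is assumed to vary like the others. The ranges were 0 to 7 rising and 0 to 5 falling partner genes, 0 to 6 falling genes with a von Willebrand A domain, 0 to 3 rising and 0 to 1 falling regulators, 0 to 2 rising and 0 to 1 falling dysplasia genes and 0 to 6 falling proteases. DESeq2 with 1 library left out, added after seeing the data, called 192 rising and 368 falling genes without the first wild type library, 123 and 302 without the second, 201 and 481 without the first knockout library and 228 and 601 without the second. With no filter on low counts 265 genes rose and 455 fell, with 1 partner gene and 3 genes with a von Willebrand A domain falling. On log2(FPKM + 1) 562 rose and 506 fell, and on log2(FPKM + 0.1) 545 rose and 494 fell, each with 2 partner genes and 3 genes with a von Willebrand A domain falling. Of the genes called by edgeR 39.1% rose, against 52.6% on log2(FPKM + 1), and the cause was not tested. On log2(FPKM + 1) with no filter 0 genes passed in limma, so that 0 members of each list rose or fell, with 4107 at an unadjusted p under 0.05. With a replicate block 949 genes rose and 1367 fell, with 7 partner genes rising and 4 proteases falling. The replicate numbers are only numbers: the deviations of same-numbered libraries correlated at 0.107 across genes, and nothing in the labels pairs them. Of 27 tested genes named for passing, none lost its call with DESeq2 size factors, upper-quartile scaling, DESeq2, summed transcript entries or the replicate block, and 1, S100b, did with library totals (edgeR adjusted p = 0.0545). Matn1 in knockout and Matn4 rest on 183 to 408 counts a library.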

Other observations

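The genes around the matrilins repeat 2 other families, picked out here after their values were seen. Laptm5, Laptm4b and Laptm4a, genes of lysosomal membrane proteins, lie just before Matn1, Matn2 and Matn3, and the syndecan genes Sdc3, Sdc1 and Sdc4, of cell surface proteoglycans, lie within 2 listed genes of Matn1, Matn3 and Matn4. The syndecan genes had log2 fold changes of 0.36 (SE 0.087), 0.09 (SE 0.091) and 0.02 (SE 0.15), and none passed in edgeR. Laptm4a, beside Matn3, had a log2 fold change of 0.30 (SE 0.071) and Laptm4b, beside Matn2, one of -0.05 (SE 0.081), and neither passed, whereas Laptm5 fell.

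Thbs1, the gene of thrombospondin-1 and a relative of Comp, had a log2 fold change of 0.71 (SE 0.18) without passing, beside the fall of Comp, and Thbs4 had one of -0.02 (SE 0.38). Mmp3 and Mmp13, which encode matrix metalloproteinases, varied widely between knockout libraries, at 1661 and 3988 CPM and at 67.4 and 175 CPM. In wild type Mmp3 measured 3400 and 5340 CPM, which overlapped with knockout, and Mmp13 230 and 361 CPM. Both knockout libraries were thus below both wild type libraries for Mmp13, which had a log2 fold change of -1.29 (SE 0.43) and did not pass.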
